A study of Mus musculus with 115 samples.

Results

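The genes described here encode the core of Polycomb repressive complex 2 (PRC2) and the enzymes that methylate DNA. They are the PRC2 genes Ezh1, Ezh2, Eed, Suz12, Jarid2 and Rbbp4 and the DNA methylation genes Dnmt1, Uhrf1, Dnmt3a and Dnmt3b, taken by gene symbol, and all 10 were found once each among the 45699 genes of the expression table. Their levels, in TPM (RSEM's transcript abundance, scaled for transcript length and to the same sum in every library), were read in all libraries and set against Mki67, which encodes the Ki-67 antigen of cycling cells, and Chga, which encodes the neuroendocrine granule protein chromogranin A.

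Every library came from bulk prostate tissue, labelled as tumor, of a transgene-positive (TRAMP x WSB/EiJ) F2 mouse. Small prostates gave RNA from the ventral prostate, and how much of each sample was tumor is not given in the sources used here. The transgene of TRAMP mice, carried on C57BL/6, is the SV40 T antigen driven by a minimal probasin promoter, which directs it to prostate epithelium; the other parental strain, WSB/EiJ, is inbred from wild-caught mice. The labels put every library in 1 group, with no transgene-negative control and no age, so no comparison between treatments or genotypes was possible. The comparisons below follow how genes varied from library to library.

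PRC2 methylates histone H3 at lysine 27 (H3K27), a mark of silenced genes. EZH1 or EZH2 is its catalytic subunit, EED and SUZ12 are needed for its activity, RBBP4 is a histone chaperone found in several complexes, and JARID2 helps to direct the complex to chromatin. DNMT1 copies DNA methylation onto newly replicated strands at sites that UHRF1 recognises, while DNMT3A and DNMT3B set new methylation. EZH2 is known for high expression in advanced and neuroendocrine prostate cancer.

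The PRC2 genes lie, on GRCm38 in the GENCODE M21 annotation, at chr11:101191115-101226463 (Ezh1), chr6:47530139-47595341 (Ezh2), chr7:89954654-89980983 (Eed), chr11:79993106-80034123 (Suz12), chr13:44729474-44921643 (Jarid2) and chr4:129307100-129335370 (Rbbp4). The DNA methylation genes lie at chr9:20907209-20959888 (Dnmt1), chr17:56303321-56323486 (Uhrf1), chr12:3806007-3914443 (Dnmt3a) and chr2:153649450-153687730 (Dnmt3b). Exons of Ezh2, Eed, Suz12, Rbbp4 and Dnmt3a share between 133 and 796 bases with a gene on the opposite strand, whose median levels were between 0.26 and 1.08 TPM, and without strand their reads cannot be told apart. Uhrf1 alone shares a stretch of 1590 bases, at 98.3% identity, with a gene elsewhere, Gm5648, listed at 0.09 TPM or less in every library. No other match of at least 95% identity over at least 100 bases was found outside those overlaps.

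The promoters of the members are shown for the letters of an E2F site, the element of many genes transcribed as cells enter S phase, because several members varied with Mki67. RefSeq promoters (GRCm38.p6) run from 250 bases before to 50 bases after a start, and all 10 members had at least 1, with 16 in all. On either strand, TTTGGCGC, TTTCCCGC, TTTCGCGC or TTTGCCGC occurred in 742 of all 32817 promoters (2.26%). Among the members they occurred in promoters of Ezh2, Dnmt1, Uhrf1 and Suz12, 1 of the promoters of each. The 30-base windows below are written 5′ to 3′ along the gene's strand with the E2F letters in capitals.
Ezh2, 4 bases after the start (chr6:47595009-47595038, minus strand): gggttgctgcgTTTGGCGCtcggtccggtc
Dnmt1, first window (chr9:20952824-20952853, minus strand, letters on the other strand): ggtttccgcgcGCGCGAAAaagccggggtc
Dnmt1, second window (chr9:20952574-20952603, minus strand): gcgcggggcagcgTTTGGCGCgggctgtgc
Uhrf1, second start (chr17:56304117-56304146, plus strand): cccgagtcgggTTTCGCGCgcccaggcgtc
Suz12 (chr11:79992876-79992905, plus strand): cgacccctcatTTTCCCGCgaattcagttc

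Of these windows, that of Ezh2 and the second of Dnmt1 lie just after the annotated start, and the others lie 185 to 219 bases before it. CCAAT, on either strand, was found in promoters of 7 members (Ezh2, Eed, Suz12, Jarid2, Rbbp4, Dnmt1 and Uhrf1) and in 37.39% of all promoters. The letters TTTGAA of a cell cycle homology region were found in those of Dnmt1, Dnmt3b, Eed and Suz12, and in 17.89% of all. In 1 promoter of Dnmt1 and 1 of Uhrf1 the 2 orientations of CCAAT overlap, and no E2F match overlaps another motif. No E2F letters were found in the promoters of Ezh1, Eed, Jarid2, Rbbp4, Dnmt3a and Dnmt3b, which concerns these letters in these windows only. The 3 Dnmt3a promoters had 74% to 82.3% G and C, against a median of 52.7% over all promoters.

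The libraries did not form a single cloud. On the first principal component of 14500 genes, members and all listed genes left out (48.5% of the variance), they separated into a larger part of 79 and a smaller part of 36 libraries, and the same division followed with every gene kept. Mki67 ran from 0.39 to 25.7 TPM in the larger part and from 20 to 144 TPM in the smaller part. Relations are therefore given within each part, and the parts, which come from these data and not from the labels, are not tested against each other. Chga further set libraries apart: 7 of the 79, at 1.19 to 4.84 TPM, and 4 of the 36 (W1118, W1050, W1915 and W1790), at 0.15 to 2.55 TPM where the other 32 had 21.2 TPM or more. The group of 4 (fall in BIC 11.7, Ashman's D 6.03) was smaller than the 6 libraries that the criteria for a part required. Results against Chga are given with and without the libraries set apart. Summed over 10 prostate luminal markers, levels ran from 408.8 to 60940 TPM in the larger part and from 46.5 to 2860 TPM in the smaller. In bulk tissue, fewer cells of a type and less RNA per cell cannot be told apart.

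All 10 members were measured in every library, with no value at 0. Rbbp4 was the most abundant, at 15.6, 37.96 and 103.4 TPM (lowest, median and highest library). The maintenance pair followed, with Dnmt1 at 2.91, 17.3 and 89.3 TPM and Uhrf1 at 0.57, 14.4 and 120 TPM. Uhrf1 thus had the widest range of any member.

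Among the other PRC2 genes, Ezh1 ran through 3.27, 11.5 and 20.6 TPM (lowest, median and highest). Eed had 3.22, 11 and 29.1 TPM. Suz12 had 3.74, 9.74 and 45.5 TPM. The medians of these subunits lay close together, though their ranges did not.

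Jarid2 had 2.16, 8.09 and 40.4 TPM, and Ezh2 had 1.32, 7.82 and 83.6 TPM. The de novo enzyme gene Dnmt3a had 1.79, 7.73 and 59.2 TPM. Dnmt3b had the lowest median, at 0.27, 0.86 and 8.25 TPM, and was below Dnmt3a in every library. In library W5000 it was at 0.77 TPM, above Uhrf1 at 0.57 TPM.

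In this order of medians, 8 of the 9 neighbouring pairs differed on log2(TPM + 1) by a 2-sided sign-flip permutation test within libraries (unadjusted p from 1e-05, the smallest that 100000 permutations can give, to 0.0432). Over all libraries Ezh2 and Dnmt3a did not differ beyond their spread (p = 0.104, Ezh2 higher in 65 libraries), though within the parts they did, in opposite directions. Ezh2 was lower by a mean log2 difference of -0.18 ± 0.060 in the larger part (p = 0.00428, higher in 31 of 79) and higher by 0.71 ± 0.078 in the smaller (p = 1e-05, 34 of 36). With a pseudocount of 0.1, Uhrf1 and Ezh1 no longer differed beyond their spread (p = 0.0825, against 0.0214 with 1), which left 7 of the 9 pairs. For Eed over Suz12 and Jarid2 over Ezh2 the mean difference had the opposite sign to the medians.

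The order was not the same in both parts. In the larger part Uhrf1 (median 6.74 TPM) stood above Ezh1 (11.04 TPM) in 25 of 79 libraries, and Eed (10.6 TPM) above Suz12 (7.5 TPM) in 64 of 79. In the smaller part Uhrf1 (median 64.5 TPM) was above Ezh1 (12.2 TPM) in 36 of 36, and Suz12 (33.2 TPM) above Eed (11.3 TPM) in 35 of 36 libraries. Between Ezh1 and Eed the difference in the smaller part was 0.0095 on the log2 scale, well within its standard error (SE) of 0.075 (p = 0.900).

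**Figure D1:**
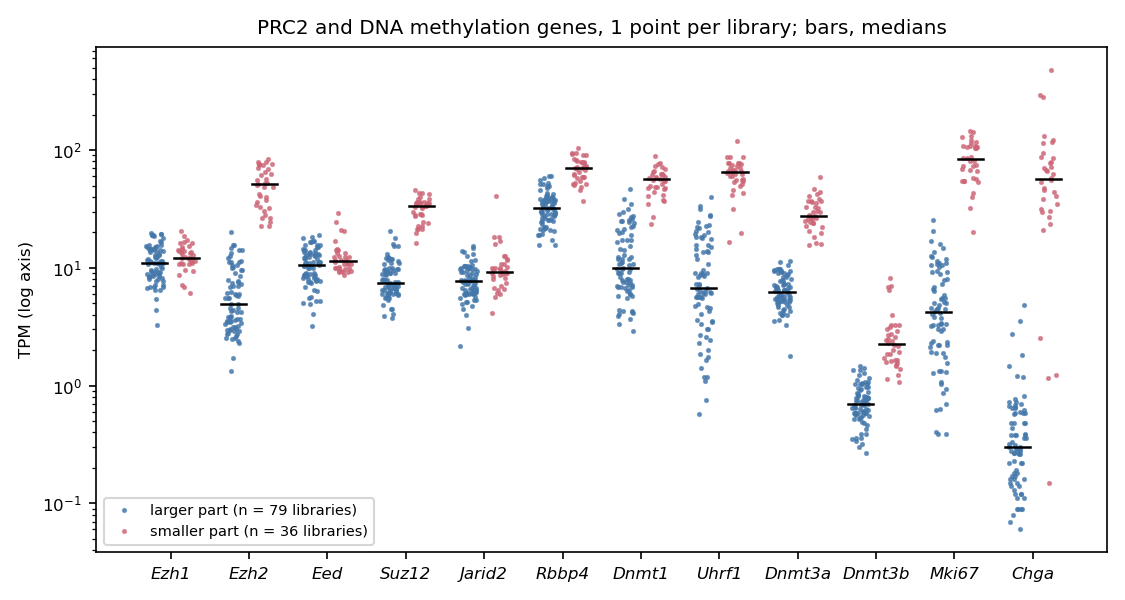
Levels of the 10 members, Mki67 and Chga in TPM on a log axis, with 1 point per library, the larger part (79 libraries) and the smaller part (36 libraries) beside each other and a bar at each median. Dnmt3b lies lowest of the members in both, with medians of 0.70 and 2.27 TPM, and the ranges of Ezh2 (1.32 to 20.2 and 22.5 to 83.6 TPM) do not overlap while those of Ezh1 (3.27 to 19.6 and 6.10 to 20.6 TPM) do.

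Ezh2, Dnmt3a, Suz12, Dnmt1 and Uhrf1 each separated into low and high libraries by their own values over all libraries, under the same mixture criteria as the parts. Their divisions differed in size, with 79 and 36 libraries for Dnmt3a and 78 and 37 for Ezh2 and for Suz12. Uhrf1 gave 84 and 31, and Dnmt1 58 and 57, so these need not follow the parts. Dnmt3a ran from 1.79 to 11.5 TPM in the larger part and from 15.5 to 59.2 TPM in the smaller, with no overlap. Ezh1, Eed, Jarid2, Rbbp4 and Dnmt3b did not separate in this way, and no member did so within a part. Within the larger part Uhrf1 varied most, its 90th percentile standing 12.3 times above its 10th, against 6.06 times for Dnmt1, 4.54 times for Ezh2 and 2.03 times for Jarid2.

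Within the larger part, all 10 members were higher where Mki67 was higher, steepest for the DNA methylation maintenance pair and for Ezh2. Most genes did the same, however: 56.1% of the 23164 genes tested were called higher and 2.71% lower (limma on log2(TPM + 1), adjusted p under 0.05 by Benjamini-Hochberg over all genes). The median coefficient, in log2 units per log2 unit of Mki67, was 0.34 over the members and 0.10 over all genes. TPM are shares of a library, and the 20 genes with the largest mean share held 51.6% to 81.8% of each library, less where Mki67 was higher (r = -0.628, rho = -0.625, both permutation p = 1e-05, r = -0.622 when the 2 libraries most distant from the Mki67 median were dropped).

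Uhrf1 went from 0.57 through 6.74 to 40.3 TPM (lowest, median, highest of the 79), with a coefficient of 1.06 ± 0.034 (SE; limma adjusted p = 9.53e-44). Pearson's r was 0.964 and Spearman's rho 0.957. Dnmt1 went from 2.91 through 10.01 to 46.96 TPM, with a coefficient of 0.78 ± 0.035 (limma adjusted p = 5.50e-34, r = 0.932, rho = 0.928). Library W4181 had the highest Mki67 and also the highest Uhrf1, Dnmt1, Ezh2, Suz12, Rbbp4 and Dnmt3b of the 79.

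Ezh2 went from 1.32 through 4.91 to 20.2 TPM with a coefficient of 0.62 ± 0.040 (limma adjusted p = 4.77e-24, r = 0.872, rho = 0.878). Its paralog Ezh1 went from 3.27 through 11.04 to 19.6 TPM with a coefficient of 0.22 ± 0.045 (limma adjusted p = 1.64e-05, r = 0.486, rho = 0.504). The catalytic subunits thus differed in steepness. Coefficients of the other PRC2 core genes lay between them, at 0.35 ± 0.034 for Eed (r = 0.761), 0.35 ± 0.028 for Rbbp4 (r = 0.815) and 0.33 ± 0.033 for Suz12 (r = 0.748).

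The smallest coefficients were those of Dnmt3a (0.20 ± 0.038, r = 0.509), Jarid2 (0.15 ± 0.043, r = 0.355) and Dnmt3b (0.12 ± 0.021, r = 0.550), with limma adjusted p from 9.25e-07 to 0.00274. The lowest place of Dnmt3b depended on the pseudocount of 1. At a pseudocount of 0.1 its coefficient was 0.179, beside 0.178 for Ezh1, 0.162 for Dnmt3a and 0.115 for Jarid2. Permutation p for r and rho was between 1e-05 and 3e-05 for every member but Jarid2 (0.00101 and 0.00064). When the 2 libraries most distant from the Mki67 median (W4181 and W4126) were dropped, r stayed between 0.313 (Jarid2) and 0.961 (Uhrf1).

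The smallest coefficients did not hold up when libraries were set on a common scale by the median ratio over genes (median-of-ratios scaling), which moved the median coefficient of all genes to -0.01 and the calls to 16.6% higher and 21% lower. On this scale 6 members were still higher with Mki67, namely Uhrf1 (1.05 ± 0.038), Dnmt1 (0.64 ± 0.033), Ezh2 (0.48 ± 0.041), Eed (0.18 ± 0.029), Rbbp4 (0.16 ± 0.023) and Suz12 (0.14 ± 0.027). Jarid2 was now lower (-0.09 ± 0.031, limma adjusted p = 0.0155), and Ezh1 (-0.03), Dnmt3a (-0.01) and Dnmt3b (0.03) were not called. With the first principal component of the larger part as covariate the same 6 were higher, and Ezh1 (-0.13 ± 0.026, limma adjusted p = 6.04e-05) and Jarid2 (-0.13 ± 0.041, limma adjusted p = 0.0132) were lower. Over all genes with this covariate, 2397 of 23164 were called higher and 5741 lower. Of the 4 members with E2F letters in a promoter, Uhrf1, Dnmt1 and Ezh2 had the largest coefficients after median-of-ratios scaling and Suz12 the smallest of the 6 called higher.

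**Figure D2:**
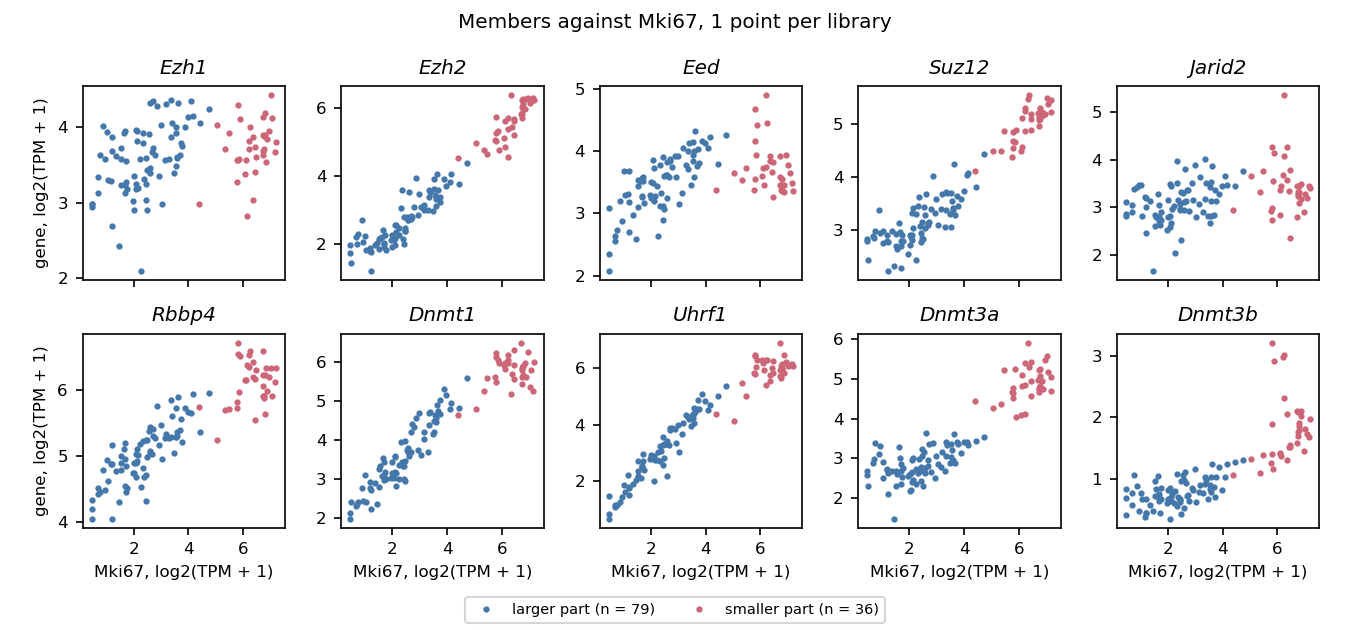
Each member, in log2(TPM + 1), against Mki67, in log2(TPM + 1), with 1 point per library in the larger (n = 79) and smaller (n = 36) part. Uhrf1, Dnmt1 and Ezh2 form narrow bands in the larger part (r = 0.964, 0.932 and 0.872), while Ezh1 and Jarid2 scatter widely (r = 0.486 and 0.355).

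Some markers of other cells moved too. All 12 further proliferation genes were called higher with Mki67 in the larger part, with a median coefficient of 0.84, between those of Dnmt1 and Uhrf1. So were 9 of 9 immune markers, whose summed level ran from 12.6 to 525.5 TPM (r = 0.63 with Mki67), and 7 of 9 stromal markers (326.9 to 6556 TPM, r = 0.36). Of the other lists, 5 of 10 luminal, 1 of 4 basal, 1 of 10 neuroendocrine, 0 of 7 seminal vesicle and 0 of 4 endothelial markers were higher. A single luminal marker was called lower, and the luminal sum had r = -0.35 with Mki67. Over all genes 56.1% were higher and 2.71% lower. After median-of-ratios scaling, where 16.6% of all genes were higher and 21% lower, 7 of 9 immune and 0 of 9 stromal markers were higher. On that scale 3 of 4 basal and 2 of 4 endothelial markers were lower. Of the luminal markers 2 of 10 were higher and 1 lower, and of the neuroendocrine markers 0 of 10 were higher and 1 lower. The part of these cells in the members' relations was not tested.

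Among the 36 libraries of the smaller part, 5 members were called higher with Mki67 and none lower, where 24.5% of the 23166 genes tested were higher and 18.3% lower. The PRC2 genes Ezh2 and Suz12 led. Ezh2 ran through 22.5, 51.05 and 83.6 TPM (lowest, median and highest of 36) with a coefficient of 0.76 ± 0.089 (limma adjusted p = 6.79e-08, r = 0.824, rho = 0.835, both permutation p = 1e-05). Suz12 ran through 16.3, 33.2 and 45.5 TPM with a coefficient of 0.45 ± 0.060 (limma adjusted p = 4.67e-07, r = 0.809, rho = 0.763, both permutation p = 1e-05). Without the 2 farthest libraries r was 0.824 and 0.732. In the deposited column order, W4356 and every later library of this part had at least 73.6 TPM of Mki67 and 42.6 TPM of Ezh2. Most earlier ones, the 4 that Chga sets apart among them, did not reach both values, though W247, W353, W1514, W4498 and W897 did. Whether this order marks a batch is not given in the sources used here, and its part in these relations was not tested.

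Dnmt3a was called with a coefficient of 0.30 ± 0.11 (limma adjusted p = 0.0232, r = 0.429, rho = 0.436), and was not called with the first principal component as covariate (0.16 ± 0.12, limma adjusted p = 0.348). Uhrf1 (0.52 ± 0.12, limma adjusted p = 0.000569, r = 0.604, rho = 0.281) and Dnmt1 (0.26 ± 0.10, limma adjusted p = 0.0369, r = 0.3997, rho = 0.102) rested on few libraries. W370 and W4419, at 20 and 31.99 TPM of Mki67, had 19.9 and 16.5 TPM of Uhrf1 and 23.8 and 26.9 TPM of Dnmt1, against medians of 64.5 and 56.3 TPM. Without these libraries r was 0.272 for Uhrf1 and -0.0095 for Dnmt1. The difference between the coefficients of the 2 parts was not tested.

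The other 5 members were not called, with coefficients from -0.11 ± 0.10 (Eed) to 0.20 ± 0.14 (Dnmt3b). With median-of-ratios scaling, under which 25.3% of genes were higher and 31.2% lower, Eed (-0.24 ± 0.066, limma adjusted p = 0.00221) and Jarid2 (-0.26 ± 0.11, limma adjusted p = 0.0377) were lower with Mki67, and Dnmt1 missed the threshold (adjusted p = 0.0567). Without the 4 libraries that Chga sets apart (25% of genes higher, 19.2% lower), Dnmt3b (0.33 ± 0.076), Ezh1 (0.23 ± 0.088) and Rbbp4 (0.21 ± 0.078) were called higher as well. In this part 7 of 10 luminal, 8 of 9 stromal and 7 of 9 immune markers were lower with Mki67, the stromal sum running from 3.69 to 1965 TPM, and their part in these relations was not tested.

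**Figure D3:**
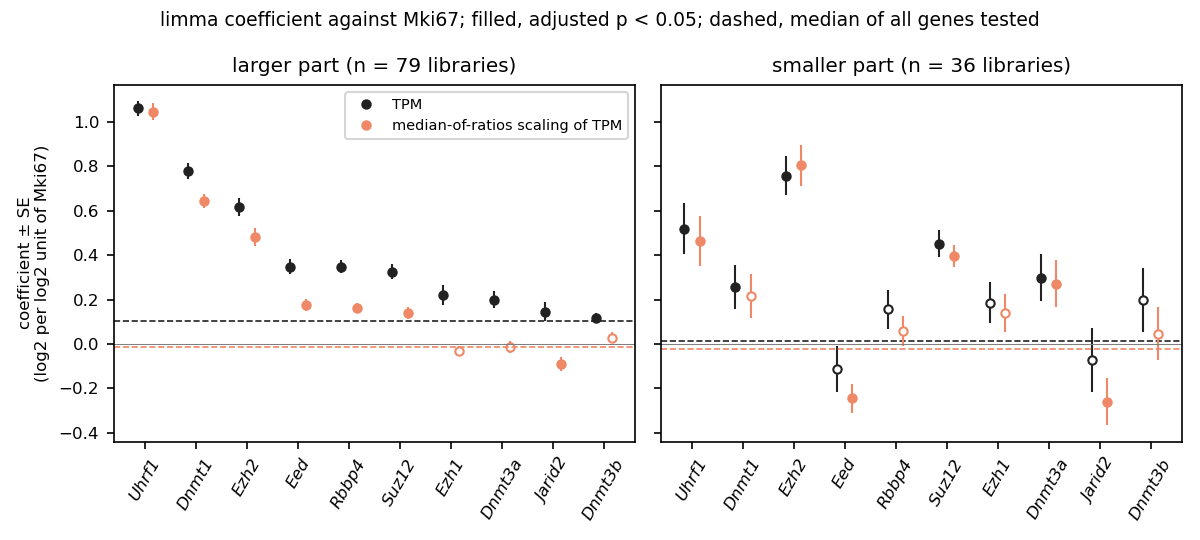
Coefficient of each member against Mki67 (log2 per log2 unit, ± SE) in the larger and smaller part, from TPM and from TPM after median-of-ratios scaling. Filled points have an adjusted p under 0.05 and dashed lines mark the median of all genes tested, which in the larger part is 0.10 and -0.01. Uhrf1, Dnmt1, Ezh2, Eed, Rbbp4 and Suz12 stay above 0 in the larger part on both scales.

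Against Chga fewer members were called than against Mki67 in both parts, 1 in the larger and 4 in the smaller. In the larger part Dnmt3a was the only member called, higher by 0.29 ± 0.098 log2 units per log2 unit of Chga (limma adjusted p = 0.028, r = 0.319, rho = 0.249, permutation p = 0.00463 and 0.0285), where 19% of all genes were higher and 0.121% lower. Chga itself was low there, at 0.06 to 4.84 TPM. Among the 72 libraries without the 7 that stood apart, no member was called by limma (1 at an unadjusted p under 0.05), with 1.16% of genes higher and 0.0% lower, and Dnmt3a had 0.43 ± 0.21 (r = 0.238). With median-of-ratios scaling, where 11.9% of genes were higher and 7.18% lower, Dnmt3a was not called (0.12 ± 0.059, and 0.10 ± 0.062 with the first principal component as covariate) and Uhrf1 (-0.84 ± 0.25), Dnmt1 (-0.43 ± 0.16) and Rbbp4 (-0.16 ± 0.059) were lower, so on this scale the signs of Dnmt1 and Rbbp4 turned from 0.03 and 0.10.

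Over the 36 libraries of the smaller part Chga ran through 0.15, 57.2 and 479 TPM (lowest, median and highest), and 8.69% of genes were higher and 19.2% lower with it. Dnmt3a was again higher, by 0.14 ± 0.032 (limma adjusted p = 0.000921, r = 0.607, rho = 0.600, permutation p = 9e-05 and 0.00017), although with the first principal component as covariate it missed the threshold (0.12 ± 0.040, limma adjusted p = 0.0558). Its levels ran through 15.5, 27.7 and 59.2 TPM, the highest in W992, where Chga was 291 TPM. Among the 32 libraries with Chga at 21.2 TPM or more, Dnmt3a was the sole member called (0.21 ± 0.059, limma adjusted p = 0.0325, r = 0.548, rho = 0.525), where 4.82% of genes were higher and 0.134% lower.

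Dnmt3b (-0.21 ± 0.035, limma adjusted p = 3.05e-05, r = -0.718, rho = -0.353), Eed (-0.11 ± 0.030, limma adjusted p = 0.00638, r = -0.531, rho = 0.104) and Jarid2 (-0.13 ± 0.044, limma adjusted p = 0.0239, r = -0.449, rho = -0.165) were lower over the 36 libraries. With the principal component as covariate Dnmt3b was the 1 member still called (-0.19 ± 0.045, limma adjusted p = 0.00461). Over all genes, 1624 of 23166 were then higher and 781 lower. The relations of Dnmt3b, Eed and Jarid2 with Chga were not called without the 4 libraries set apart. Among the other 32, coefficients were -0.03 ± 0.060 for Dnmt3b, 0.12 ± 0.036 for Eed and 0.10 ± 0.066 for Jarid2, none called, with the last 2 changed in sign. The r of Eed over the 32 was 0.547 (rho = 0.569).

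In the 4 Chga-low libraries W1118, W1790, W1915 and W1050, Dnmt3b stood at 6.49, 6.87, 7.06 and 8.25 TPM, against 1.07 to 3.96 TPM in the other 32. Eed stood at 20.4, 29.05, 20.99 and 24.6 TPM, against 8.62 to 16.9 TPM. For both genes the groups did not overlap. Jarid2 stood at 16.8, 11.8, 40.4 and 18.5 TPM, against 4.10 to 18.2 TPM, overlapping.

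Dnmt3a in these 4 libraries was 15.5, 16.2, 28.03 and 22.01 TPM, within or just below the 16.04 to 59.2 TPM of the others. So 2 of the 10 members lay above all of the other 32 libraries and none below, where 9.98% of all genes tested lay above and 2.92% below. This is a description of 4 libraries that Chga picked out, with no test. They had 54.7 to 74.1 TPM of Mki67, within the 20 to 144 TPM of the others.

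The neuroendocrine markers Snap25 (0.09 to 0.15 TPM, against 17.02 to 251.9 TPM) and Scg3 (0.00 to 0.08 TPM, against 7.75 to 41.6 TPM) were near 0 in all 4 libraries, while Foxa2 was at 33.7 to 53.97 TPM, within the 0.00 to 62.9 TPM of the others. The luminal keratins Krt8 (369.0 to 630.5 TPM, against 0.14 to 310.5 TPM) and Krt18 (355.2 to 748.9 TPM, against 0.18 to 161.4 TPM) did not overlap with the other 32 libraries. The immune markers summed to 137.9 to 405.5 TPM in the 4, against 12.5 to 258.5 TPM, and the stromal markers to 541.7 to 1965 TPM, against 3.69 to 971.7 TPM. The part of these other cells in the levels of Dnmt3b and Eed was not tested.

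**Figure D4:**
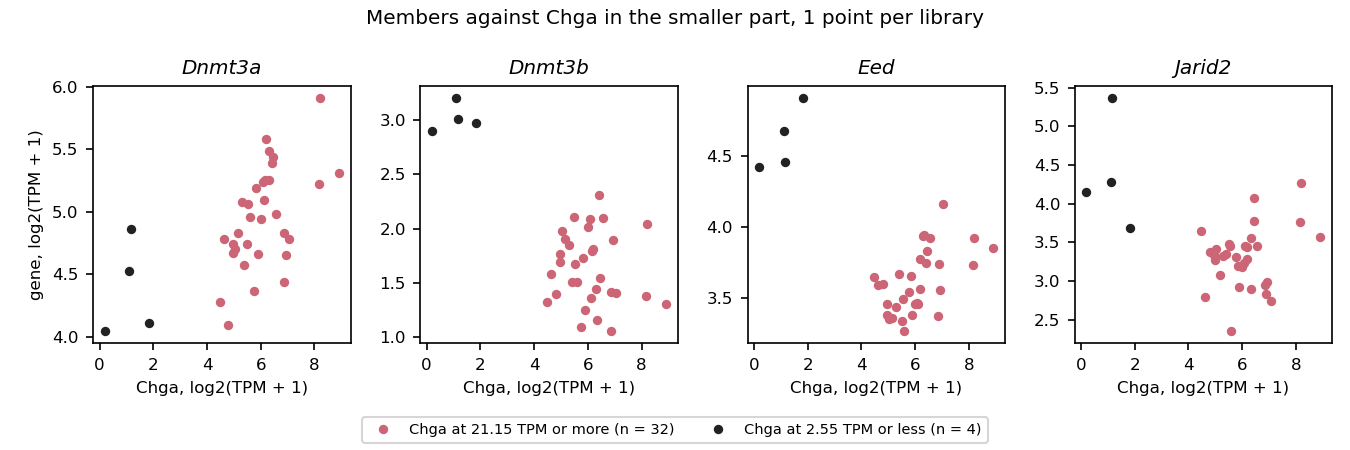
Dnmt3a, Dnmt3b, Eed and Jarid2 against Chga, each in log2(TPM + 1), in the 36 libraries of the smaller part, with the 4 libraries at 2.55 TPM of Chga or less in black. Dnmt3a is higher with Chga among the other 32 libraries (r = 0.548), whereas Dnmt3b (r = -0.718 over 36) is high only in the 4 black points.

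Mki67 and Chga hardly covaried within a part (r = -0.082, rho = -0.107, permutation p = 0.477 and 0.347 in the larger; r = 0.011, rho = -0.138, permutation p = 0.949 and 0.421 in the smaller). With both in 1 limma model, all 10 members kept a positive Mki67 term in the larger part (58.8% of genes higher, 2.72% lower). The Chga term was then called for 5 members, Dnmt3a (0.33 ± 0.081), Ezh1 (0.30 ± 0.099), Jarid2 (0.24 ± 0.097), Suz12 (0.19 ± 0.074) and Rbbp4 (0.17 ± 0.064), against a background of 37.2% of genes higher and 0.302% lower, and none of them was called after median-of-ratios scaling (0 at an unadjusted p under 0.05). In the smaller part the Mki67 term was called for the same 5 members as alone (26% of genes higher, 21.3% lower). The Chga term was called higher for Dnmt3a (0.14 ± 0.027) and Ezh2 (0.08 ± 0.027) and lower for Dnmt3b, Jarid2 and Eed (11.8% of genes higher, 22% lower).

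Ratios between paralogs within a library do not depend on its scale, apart from the pseudocount. The ratio of Ezh2 to Ezh1 was 0.1997, 0.466 and 1.40 (lowest, median and highest TPM ratio) in the larger part, where Ezh2 was the higher gene in 4 of 79 libraries. It was 1.62, 4.22 and 11.6 in the smaller part, with Ezh2 the higher in all 36. As a log2 ratio it was higher with Mki67 in the larger part (r = 0.755, rho = 0.770, both permutation p = 1e-05) and in the smaller (r = 0.605, rho = 0.680, permutation p = 0.00016 and 1e-05). The catalytic subunit transcripts thus shifted towards Ezh2 where Mki67 was high, on either side of the division.

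Dnmt1 exceeded Dnmt3a in 69 of 79 libraries of the larger part (ratio 0.446, 1.77 and 5.01) and in 34 of 36 of the smaller (0.594, 1.84 and 4.03). Its log2 ratio was higher with Mki67 in the larger part (r = 0.877, rho = 0.882, both permutation p = 1e-05), but not detectably in the smaller (r = -0.045, p = 0.791). There it was lower with Chga (r = -0.649, rho = -0.516, permutation p = 5e-05 and 0.00128; and among the 32, r = -0.449 with permutation p = 0.0113 and rho = -0.346 with p = 0.0549).

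Dnmt3b was between 0.0328 and 0.423 of Dnmt3a in TPM. The log2 ratio was lower with Chga in the smaller part (r = -0.876, rho = -0.682, permutation p = 1e-05 and 3e-05), also over the 32 libraries (r = -0.598, rho = -0.550, permutation p = 0.00026 and 0.00126). In the larger part it was lower with Mki67 at a pseudocount of 1 (r = -0.269), but not at 0.1 (r = 0.058), so no direction is given there.

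The members also covaried among themselves. In the larger part all 45 pairs were called, with r from 0.308 (Jarid2 with Uhrf1) to 0.949 (Dnmt1 with Uhrf1), at a median of 0.699, where 71.4% of all genes were called higher in fits against a member. The pairs share the scale of their library, and after median-of-ratios scaling r had a median of 0.112, with 16 pairs below 0. Dnmt1 with Uhrf1 stayed at 0.949, and Ezh2 with Suz12 went from 0.884 to 0.694.

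Of 45 pairs in the smaller part, 14 were called (20.3% of all genes higher in fits against a member), all of those positive, and r over the 45 ran from -0.340 (Ezh2 with Eed, not called) to 0.723 (Dnmt1 with Uhrf1). Ezh2, Suz12 and Dnmt3a formed one called triplet, with r of 0.68 for Ezh2 with Suz12, 0.64 for Suz12 with Dnmt3a and 0.60 for Ezh2 with Dnmt3a. Eed, Rbbp4, Jarid2 and Dnmt3b were called in each of their 6 pairs, with r from 0.47 to 0.64, and Suz12 with Rbbp4 was called as well (r = 0.44). The r of these 6 pairs ran from -0.015 to 0.44 after median-of-ratios scaling and from -0.13 to 0.47 without the 4 Chga-low libraries. Eed had r = 0.021 with Suz12 and -0.34 with Ezh2, the latter 0.029 without those libraries. Without the 4 Chga-low libraries, r of Eed with Dnmt3b went from 0.64 to -0.13 and that of Ezh2 with Dnmt3b from 0.03 to 0.70, whereas the triplet kept r of 0.73, 0.69 and 0.49.

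**Figure D5:**
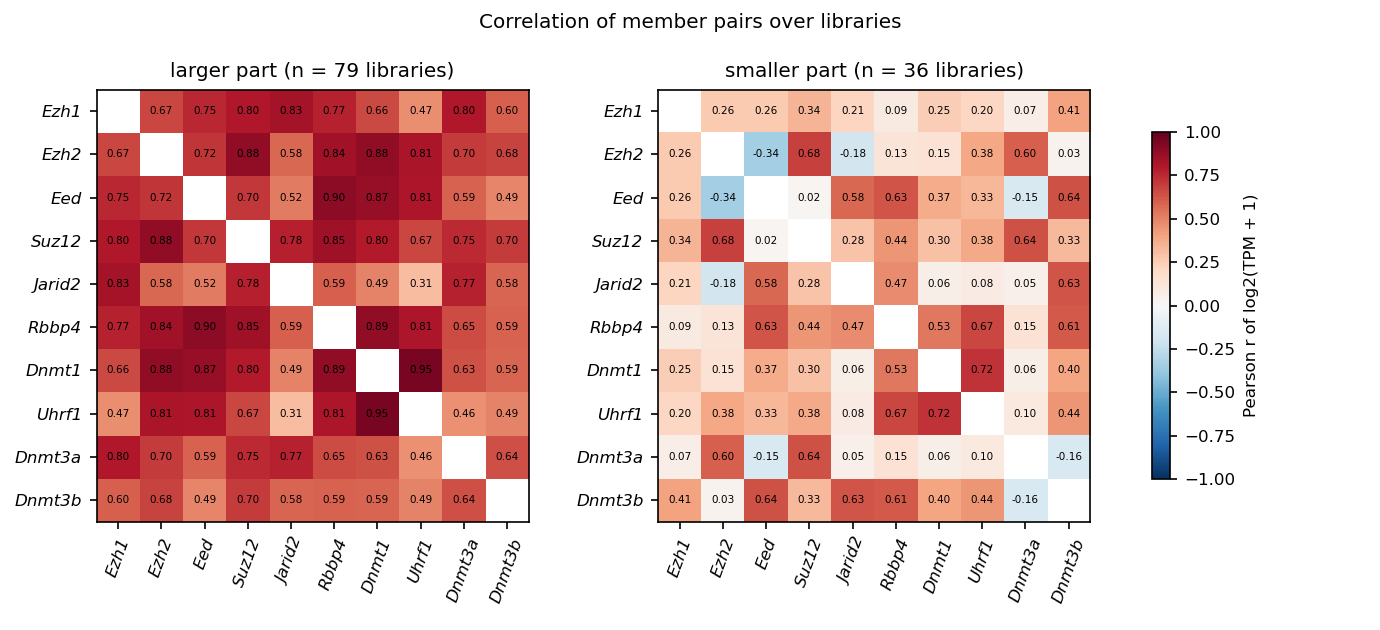
Pearson r of log2(TPM + 1) for the 45 member pairs over the 79 libraries of the larger part and the 36 of the smaller part, on a colour scale from -1 to 1. Every pair of the larger part is positive (0.308 to 0.949), and in the smaller part 4 pairs are negative, Ezh2 with Eed lowest at -0.340.

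Genes outside all lists with the highest r to each member over the 79 libraries were sought among 14499 candidates. Uhrf1 was nearest to Mcm5 (r = 0.983), a subunit of the replicative helicase, and Chaf1b (r = 0.978), of chromatin assembly factor 1. Dnmt1 was nearest to Pola2 (r = 0.980), of DNA polymerase alpha, and Mcm7 (r = 0.977). Ezh2 was nearest to Skp2 (r = 0.963), which encodes a ubiquitin ligase subunit, and Zgrf1 (r = 0.960).

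Only 23 candidates lay nearer to Uhrf1 than Mki67 did, 130 to Dnmt1 and 216 to Ezh2, against 1949 for Rbbp4, 2637 for Suz12 and 3553 for Eed. For Jarid2 there were 10936 and for Ezh1 10698. Nearest to Eed were Plrg1 (r = 0.956) and Rnf168 (r = 0.951), to Suz12 Fem1c (r = 0.941) and Taok3 (r = 0.938), and to Rbbp4 Nedd1 (r = 0.952) and Rmi1 (r = 0.946). Zfyve26 was near to Ezh1 (r = 0.951), and nearest to Jarid2 were Akap9 (r = 0.894) and Dmxl2 (r = 0.892). Dnmt3a was nearest to Erc1 (r = 0.907) and Plcg1 (r = 0.900), and Dnmt3b, with no close neighbour, to Gtf2ird1 (r = 0.751) and Dbf4 (r = 0.744). These values share library scale and are descriptions.

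Other genes of the pathways, as lists, are set against the 56.1% of all genes that were higher with Mki67 in the larger part and the 2.71% that were lower. Of 7 PRC2 accessory subunits 5 were called higher with Mki67, from Rbbp7 (0.05, not called, median 0.32 TPM) to Mtf2 (0.35 ± 0.0385), which encodes a chromatin-binding partner of PRC2. Of 21 subunits of PRC1, the Polycomb complex that ubiquitinates histone H2A, 20 were higher, from Scmh1 (0.04, not called) to Cbx6 (0.51 ± 0.0536). Of 6 genes for H3K27 demethylases and the H2A deubiquitinase 4 were higher, from Kdm6b (-0.03, not called) to Asxl1 (0.27). None of these lists had a gene called lower.

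Of 7 partners of DNA methylation 5 were higher, from Dnmt3l (-0.04, not called) to Hells (0.98 ± 0.0403), a chromatin remodeller needed for DNA methylation, with Pcna, the replication clamp, at 0.89. Of 4 DNA demethylation genes 3 were higher, from Tet1 (-0.02, not called) to Tdg (0.21), and of 8 methyl-CpG readers 7, from Zbtb4 (0.06, not called) to Mbd4 (0.42). The medians of these lists lay between 0.14 and 0.35, as against 0.34 for the members. After median-of-ratios scaling, where 16.6% of all genes were higher and 21% lower, 1 of 7 accessory subunits was higher and 2 lower, 6 of 21 PRC1 subunits higher and 3 lower, and 4 of 7 partners higher and 1 lower. Of the demethylase and deubiquitinase genes 1 of 6 was higher and 3 lower, of the DNA demethylation genes 0 of 4 and 1, and of the methyl-CpG readers 1 of 8 and 2. Scmh1 (-0.18), Kdm6b (-0.21) and Tet1 (-0.13) were among those called lower.

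Over the 36 libraries, Mtf2 (0.56 ± 0.0868, limma adjusted p = 5.3e-06), Hells (0.50 ± 0.11), Tet1 (0.90 ± 0.19) and Tet2 (0.50 ± 0.15) were called higher with Mki67. Pcna (0.16 ± 0.10) and the PRC1 genes Cbx2 (-0.07 ± 0.10), Bmi1 (0.24 ± 0.13) and Rnf2 (0.07 ± 0.10) were not. Over the lists there, where 24.5% of all genes were higher and 18.3% lower, 2 of 7 accessory subunits, 7 of 21 PRC1 subunits and 3 of 7 partners were higher and 0, 2 and 1 lower. Of the demethylase and deubiquitinase genes 4 of 6 were higher, of the DNA demethylation genes 2 of 4 and of the methyl-CpG readers 2 of 8, with 0, 0 and 1 lower. With Chga, Phf19 (0.35 ± 0.0597), a PRC2 partner, and Tet1 (0.32 ± 0.0615), a DNA demethylase, were called higher, and Aebp2 (-0.12 ± 0.0342) lower. Neither direction of any of these 3 was called among the 32 libraries without the Chga-low ones. With Chga over all 36, 8.69% of all genes were higher and 19.2% lower. Of the accessory subunits 1 of 7 was higher and 1 lower, and of the PRC1 subunits 3 of 21 and 2. Of the DNA demethylation genes 1 of 4 was higher and 2 lower, and of the methyl-CpG readers 0 of 8 and 1. No partner of DNA methylation and no demethylase or deubiquitinase gene was called.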

How the data were processed

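RNA from 115 bulk prostate samples was rRNA-depleted (Ribo-Zero) and made into TruSeq libraries, with no strand setting given in the sources used here. For small prostates the ventral prostate was used. The authors trimmed the reads, aligned them with Bowtie2 2.2.5 to a transcriptome holding both parental alleles (GRCm38; the annotation release is not given in the sources used here) and estimated TPM with RSEM 1.2.20; the deposited TPM table holds 1 column per library. TPM are shares of a library and do not give its depth, for which the authors state a minimum only, so no counting interval is given.

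All 115 libraries form 1 label group. Nothing in the labels gives technical repeats, so 1 library was treated as 1 replicate. The authors describe RNA-seq of fewer prostates than these 115, and what the further libraries are is not given in the sources used here. Whether every library is a separate mouse was not checked. The members and lists were chosen with earlier results of these data known, and the libraries that Chga sets apart were identified after seeing the data. The parts came from a 2-component mixture on the first principal component (mean TPM of at least 1). A fall in BIC over 10, Ashman's D over 2 and at least 6 libraries in each part were required. Within each part, log2(TPM + 1) of every gene averaging 0.1 TPM or more was fitted on the marker with limma 3.58.1 (trend; R 4.3.3), with Benjamini-Hochberg adjustment over all genes at 0.05. A fold on this scale understates the change of low genes. The limma fit was tested on simulated data, with noise drawn independently for each gene. It called 77 of 100 genes seeded with a slope of 0.25 and 95 of 100 seeded with 0.5. Such noise lacks the scale that genes of a library share, so the test cannot tell how that scale affects the calls. Correlations have 100000 permutations, 2-sided, with p-values of r and rho not adjusted; the 2 libraries farthest from the median of the marker were left out in turn as a pair. They comprise 26 relations per part, of which the limma adjusted p covers those of single genes. Genes named outside the members were those with the highest and lowest coefficient of each pathway list, the 2 nearest to each member by r (1 of those for Ezh1 is not reported here), and a set of paralogs and partners named in the plan; Aebp2 and the cell markers were chosen after their values were seen. Shared sequence was found with bedtools 2.31.1 and BLAST 2.17.0.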

Additional observations from a re-analysis of the deposited data

How the results depend on the processing

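Of the 380 member coefficients recomputed under alternatives, 301 kept their direction and their side of the threshold and 45 changed sign. The 301 include settings that could not change a coefficient. Other filters on low values left every member coefficient as it was, and the parts drawn from all genes held the same libraries. The share that held is therefore not a measure of stability. No paired analysis was possible because the labels hold 1 group. Leaving out W78022, whose label is nearly that of W7822, other filters on low values and parts drawn from all genes changed no count of calls by over 1.5 times. The causes were not tested.

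Against Mki67, 10 members were called in the larger part, and 6 with TPM rescaled without the 20 largest genes. Over all genes, 12997 of 23164 were higher and 627 lower, and after rescaling 5702 and 2232. The smaller part had 5 called, 8 with the first principal component as covariate (Dnmt3a lost), 10 with all libraries in 1 fit and 8 without the Chga-low libraries. Genes higher and lower there numbered 5677 and 4250 of 23166, and 6062 and 1271 with the principal component. With all libraries they numbered 12104 and 618 of 23251, and without the Chga-low 5794 and 4449 of 23156. Against Chga in the larger part 1 was called, 3 by median-of-ratios scaling, 2 each by rescaling, the principal component and all libraries, 6 with Chgb in place of Chga, and by limma 0 without the libraries set apart and 0 on ranks (1 each at an unadjusted p under 0.05). Genes higher and lower were 4396 and 28 of 23164, 2756 and 1664 by median-of-ratios scaling, and 4245 and 617 by rescaling. They were 2326 and 1238 with the principal component, 4100 and 3724 of 23251 with all libraries, and 8516 and 135 with Chgb. Without the libraries set apart they were 269 and 0 of 23144, and on ranks 2930 and 4 of 23164. The 4 of the smaller part became 1 with the principal component (Dnmt3b, with Dnmt3a lost), 2 with all libraries (Dnmt3a and Dnmt3b), 1 without the Chga-low libraries (Dnmt3a) and 1 on ranks (Dnmt3a). Over all genes there, 2013 higher and 4447 lower of 23166 became 1624 and 781 with the principal component. They became 4100 and 3724 of 23251 with all libraries, 1117 and 31 of 23156 without the Chga-low, and 222 and 16 on ranks. In the joint model, the Mki67 term gave 6 of 10 members in the larger part after rescaling, and 8 (rescaling), 9 (principal component), 10 (all libraries) and 8 (without the Chga-low) in the smaller. Of 23163 genes, this term gave 6442 higher and 1684 lower in the larger part after rescaling. In the smaller part it gave 8101 and 4649 of 23165 (rescaling) and 6977 and 770 (principal component). The other 2 settings there gave 12491 and 667 of 23250 (all libraries) and 6268 and 4088 of 23155 (without the Chga-low). The Chga term of the joint model in the larger part went from 5 to 0 by limma with median-of-ratios scaling (0 unadjusted), the principal component (1 unadjusted) and without the libraries set apart (1 unadjusted), and to 1 after rescaling. Over all genes it gave 2109 higher and 1172 lower of 23163, then 1080 and 140, 431 and 0 of 23143, and 5242 and 397, in that order. In the smaller part the Chga term went to 2 with the principal component and 3 without the Chga-low libraries. Genes higher and lower by it were 3411 and 325 of 23165, and 1495 and 63 of 23155. Called pairs went from 45 to 22 with either median-of-ratios scaling or the principal component, and from 14 to 9, 44 and 9 with median-of-ratios scaling, all libraries and without the Chga-low libraries. The share of all genes called in fits against a member is not given for these settings, so these pair counts are descriptions. The median log2 ratio of Dnmt3b to Dnmt3a in the larger part went from -2.10 to -3.00 at a pseudocount of 0.1, and its r with Mki67 changed sign to 0.058 and, in the smaller part, to 0.0074.

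Coefficients against Mki67 that changed sign in the larger part were Ezh1 (-0.031), Dnmt3a (-0.013) and Jarid2 (-0.090) by median-of-ratios scaling, Jarid2 (-0.020) by rescaling, and Ezh1 (-0.13, called lower), Dnmt3a (-0.041) and Jarid2 (-0.13, called lower) with the principal component. In the smaller part they were Eed (0.26) and Jarid2 (0.33) with the principal component, Eed (0.28) and Jarid2 (0.11) with all libraries, and Jarid2 (0.0068) without the Chga-low libraries. Against Chga in the larger part they were Dnmt1 (-0.0079) at a pseudocount of 0.1; Dnmt1 (-0.43), Suz12 (-0.11), Dnmt3b (-0.024), Ezh2 (-0.29), Eed (-0.17) and Rbbp4 (-0.16) by median-of-ratios scaling; and Dnmt1 (-0.19), Ezh2 (-0.095), Eed (-0.050) and Rbbp4 (-0.037) by rescaling. With the principal component they were Dnmt1 (-0.43), Suz12 (-0.098), Dnmt3b (-0.020), Ezh2 (-0.29), Eed (-0.14) and Rbbp4 (-0.14). With all libraries they were Dnmt1 (-0.048), Ezh1 (-0.029), Dnmt3b (-0.18), Eed (-0.085), Jarid2 (-0.091) and Rbbp4 (-0.033), and without the libraries set apart Dnmt1 (-0.080) and Ezh2 (-0.079). In the smaller part they were Dnmt1 (0.0064) and Rbbp4 (0.0037) by rescaling, Suz12 (-0.037) and Ezh2 (-0.089) with the principal component, and Ezh2 (-0.077), Eed (0.12), Jarid2 (0.097) and Rbbp4 (0.097) without the Chga-low libraries.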
